A study of Saccharomyces cerevisiae with 4 samples.

Results

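The nuclear genes for subunits of the mitochondrial respiratory chain and ATP synthase were followed in budding yeast (Saccharomyces cerevisiae) that carried an slt2 mutation and had its cell wall digested with zymolyase. The members were chosen by name, as the subunits of each complex, with earlier results of these data known: 3 NADH dehydrogenase genes, 4 genes of complex II, 9 of complex III, both cytochrome c genes, 9 of complex IV and 10 of ATP synthase. These are 37 of 6207 reading frames on the arrays, and all 37 had a value on all 4 arrays, so no filter removed any of them. SLT2 encodes the last kinase of the cell wall integrity pathway, and zymolyase 100T is an enzyme mixture that degrades wall glucan. Cells grew at 24 °C in rich medium. Slt2 mutant cells that had received 5 units of zymolyase per ml were compared with untreated slt2 mutant cells from the same culture, both taken at 3 h. RNA of 2 cultures was hybridised to 4 two-colour arrays, with the treated RNA in Cy3 on arrays 1 and 3 and in Cy5 on arrays 2 and 4. By the titles both arms carry the mutation on every array, although 1 channel label, that of the treated RNA on array 3, reads wild type. There is no wild type group, so no value here speaks of the part that Slt2 plays.

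Respiration passes electrons from NADH and succinate through coenzyme Q to complex III, then through cytochrome c to complex IV, which reduces oxygen. Complexes III and IV pump protons, and ATP synthase uses the proton gradient to make ATP. Budding yeast has no proton-pumping complex I and uses simpler NADH dehydrogenases on either face of the inner membrane. On glucose it ferments and holds many respiratory genes at low levels, with the heme activator Hap1 and the Hap2/3/4/5 complex as their main activators. Some subunits come in pairs of isoforms, of which one is used with ample oxygen and the other when oxygen is scarce.

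Each deposited value is a log ratio between both channels of an array, taken as log2 by its size. The labels state neither the numerator nor the base of the logarithm. As deposited, arrays of opposite dye orientation had a negative correlation over all genes, between -0.60 and -0.29, and the signs of arrays 2 and 4 were therefore turned. Which sign means higher with zymolyase is therefore not settled. Positive values are called the HSP12 side, after a stress gene with a mean of 2.63, and negative values the TIP1 side, after a wall protein gene with a mean of -1.17. If the deposited ratio is Cy3 over Cy5, the HSP12 side is the one higher with zymolyase, and with the opposite ratio it is the lower one. SLT2 had a value on 0 arrays, so the mutated gene could not check the labels. Since array 3 has the conflicting label, results that turn on it are also given without it. No label ties an array to its culture, and n = 4 below always means 4 arrays of 2 cultures. The spots' sequences are not given here, so RNA of a closely similar gene could add to a value.

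None of the respiratory genes passed the test. Of 37 members 0 were called toward either side (limma, adjusted p under 0.05), where 4.55% of all 4788 genes tested were called, with 4.34% on the HSP12 side and the remaining 0.209% opposite. At an unadjusted p under 0.05 the limma test held 2 of 37 members, the cytochrome c gene CYC1 and the complex IV gene COX5B, against 11.5% of all genes. The same 2 were the members with a mean of at least 1.5-fold, which 7.35% of all genes reached. These criteria are not independent, since the fit gave every member the same error and its p followed the size of the mean. Means ran from -0.73 to 0.60 with a median of -0.06, and the median over all genes was also -0.06. The median of the members moved with single arrays, to -0.13 without array 2 (-0.06 for all genes), 0.00087 without array 3 (-0.03 for all genes) and 0.0043 without array 4 (-0.05 for all genes). The means lay on the TIP1 side for 23 members (62.2%, against 57.5% of all genes) and opposite for 14.

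The arrays limit how small a change could be seen. The 95% interval of the fit reached 0.48 to either side of each member's mean, or 1.39-fold. It lay within 2-fold in both directions for 35 of 37 members, against 90.5% of all genes. With 1 width for every member this count again follows the size of the mean, and the members outside were CYC1 and COX5B. The interval takes 1 variance from all genes and is too narrow for members whose own arrays differ more. Only 9 of 37 members (24.3%) had the same side on all 4 arrays, against 30.3% of all genes. NDI1, NDE1, SDH1, CYT1, ATP1 and ATP4 had all arrays on the HSP12 side, as did 11.8% of all genes. CYC1, COX4 and COX5A had all arrays on the TIP1 side, as did 18.5% of all genes. In the plot of members by array most genes straddle 0.

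**Figure D1:**
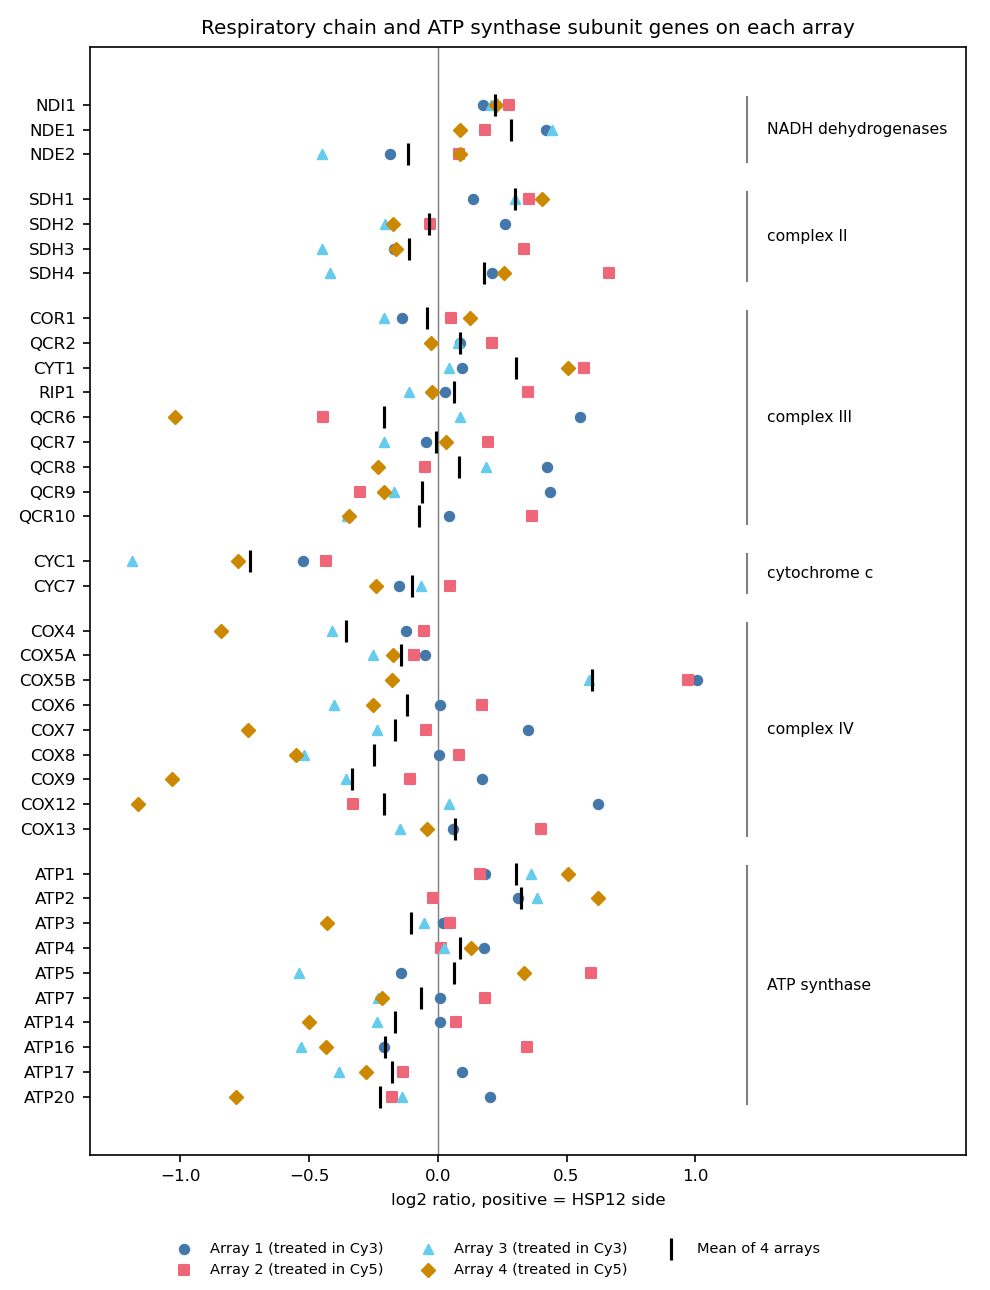
Log2 ratios (horizontal axis) of the 37 members on each of 4 arrays, grouped by complex, with the mean of the 4 arrays as a black bar. Positive values are on the HSP12 side. Most members have arrays on both sides of 0, all 4 arrays of CYC1 lie below 0, and 3 of the 4 arrays of COX5B lie well above it.

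The NADH dehydrogenases feed electrons into the chain, NDI1 from the matrix side and NDE1 and NDE2 from the cytosolic side. NDI1 (YML120C) had log2 ratios of 0.17, 0.28, 0.21 and 0.23 on arrays 1 to 4. Its mean of 0.22 ± 0.04 (SD, n = 4) had the smallest SD of the 37 members, and it was not called (limma adjusted p = 0.830). NDE1 (YMR145C) had 0.42, 0.18, 0.44 and 0.09, a mean of 0.28 ± 0.18. NDE2 (YDL085W) had -0.18, 0.08, -0.45 and 0.09, so its arrays lay on both sides of 0 and its mean was -0.12 ± 0.26. The median of the 3 genes was 0.22.

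Complex II, succinate dehydrogenase, also belongs to the tricarboxylic acid cycle. Its flavoprotein gene SDH1 (YKL148C) had 0.13, 0.35, 0.30 and 0.40 on arrays 1 to 4, averaging 0.30 ± 0.12 (SD, n = 4). All arrays lay on the HSP12 side, without a call (limma adjusted p = 0.725). The iron-sulfur subunit gene SDH2 (YLL041C) had 0.26 on array 1 and values from -0.20 to -0.03 on the others, with a mean of -0.04. The membrane anchor genes SDH3 (-0.11 ± 0.33) and SDH4 (0.18 ± 0.45) had their lowest value on array 3, -0.45 and -0.42, and their highest on array 2, 0.33 and 0.67. The means of the 4 genes lay on both sides of 0, with a median of 0.07.

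Complex III carries electrons from coenzyme Q to cytochrome c. CYT1 (YOR065W), encoding its cytochrome c1, had 0.09, 0.57, 0.04 and 0.51, and a mean of 0.30 ± 0.27 (SD, n = 4), the largest of the complex (limma adjusted p = 0.717). The Rieske iron-sulfur protein gene RIP1 had a mean of 0.06, and the core protein genes COR1 and QCR2 had -0.04 and 0.09. Among the small subunits QCR7 (YDR529C) lay nearest to 0, with -0.05, 0.20, -0.21 and 0.03. QCR8, QCR9 and QCR10 had means of 0.08, -0.06 and -0.07. QCR6 (YFR033C), the acidic small subunit, had 0.55, -0.45, 0.09 and -1.02, a spread (SD 0.68) several times its mean of -0.21. Of the 9 genes 4 had a positive mean and 5 a negative one, and the median was -0.01.

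Cytochrome c is the mobile carrier between complexes III and IV. CYC1 (YJR048W), the form made in ample oxygen, had -0.52, -0.43, -1.19 and -0.78 on arrays 1 to 4. The mean of -0.73 ± 0.34 (SD, n = 4), or 1.66-fold, was the largest size among the members. It missed the threshold narrowly (limma adjusted p = 0.0577), was past it under 8 of 15 alternative settings (adjusted p from 0.000490 to 0.256 with the arrays turned), and was -0.58 without array 3 (adjusted p = 0.244). The gene is short (330 bases), and with the trend in coding length described below removed the mean was -0.59 (limma adjusted p = 0.0793). CYC7 (YEL039C), the form favoured in low oxygen, had -0.15, 0.05, -0.06 and -0.24, and a mean of -0.10 ± 0.12 (limma adjusted p = 0.928).

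Complex IV, cytochrome c oxidase, had the widest range of means, from -0.36 to 0.60. COX5B (YIL111W), the low-oxygen form of subunit V, had 1.01, 0.97, 0.59 and -0.18 on arrays 1 to 4. The first 3 arrays lay clearly on the HSP12 side and array 4 did not. The mean of 0.60 ± 0.55 (SD, n = 4), or 1.51-fold, was not called (limma adjusted p = 0.201), and without array 4 it was 0.86 with a call (adjusted p = 0.0383). COX5A (YNL052W), the form for ample oxygen, had -0.05, -0.09, -0.25 and -0.17, a mean of -0.14 ± 0.09. COX4 (YGL187C), an essential subunit of the enzyme, had -0.13, -0.05, -0.41 and -0.84, a mean of -0.36 ± 0.36.

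Several small subunits of complex IV had their lowest value on array 4. COX9 (YDL067C) had 0.17, -0.11, -0.36 and -1.03, and COX12 (YLR038C) 0.62, -0.33, 0.04 and -1.16. COX7 had a mean of -0.17, COX8 one of -0.25 and COX6 one of -0.12. COX13 (YGL191W) lay nearest to 0 with a mean of 0.07 ± 0.24 and values from -0.15 to 0.40. The complex had 7 of 9 means on the TIP1 side (77.8%, against 57.5% of all genes). Its median of -0.17 was -0.33 without array 1, -0.075 without array 4 and -0.08 with the arrays scaled to equal median absolute deviation. The medians over its genes were -0.25 and -0.55 on arrays 3 and 4, against 0.06 and -0.05 on arrays 1 and 2.

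ATP synthase has a catalytic head, a rotor and a stator. The genes of the catalytic pair, ATP1 (alpha) and ATP2 (beta), stood furthest toward the HSP12 side among its members. ATP1 (YBL099W) had 0.18, 0.16, 0.36 and 0.51 on arrays 1 to 4, a mean of 0.30 ± 0.16 (SD, n = 4; limma adjusted p = 0.717). ATP2 (YJR121W) had 0.31, -0.02, 0.39 and 0.62, a mean of 0.32 ± 0.27 (limma adjusted p = 0.687). These are the longest genes of the complex, at 1638 and 1536 bases. The central stalk genes ATP3 (gamma) and ATP16 (delta) had -0.10 and -0.21. Of the stator genes, ATP4 had 0.09 ± 0.08 with all 4 arrays on the HSP12 side, ATP7 -0.06 and ATP14 -0.16. ATP5 (YDR298C), the oligomycin sensitivity protein of the stator, had -0.14, 0.59, -0.54 and 0.34, a mean of 0.06. ATP17 and ATP20, membrane subunits, the second linked to dimer formation, had -0.18 and -0.22. The median of the 10 genes was -0.08, and 6 of them had a mean on the TIP1 side (60%, against 57.5% of all genes).

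The isoform pairs were compared within each array, since both genes of a pair are read against the same RNA. CYC7 lay nearer to the HSP12 side than CYC1 on all 4 arrays, by 0.37, 0.48, 1.12 and 0.54, a mean difference of 0.63 ± 0.34 (SD, n = 4; exact sign-flip permutation test, two-sided, p = 0.13, adjusted 0.19). COX5B lay nearer to it than COX5A by 1.06, 1.06 and 0.84 on arrays 1 to 3, and not on array 4 (-0.0035). The mean difference was 0.74 ± 0.51 (exact permutation p = 0.250, adjusted 0.250). NDE2 minus NDE1 was -0.60, -0.10, -0.90 and -0.0004, a mean of -0.40 ± 0.42 (exact permutation p = 0.13, adjusted 0.19). With 4 arrays this test cannot go below 0.13 (rounded), so none of the 3 pairs could pass, and arrays of the same culture are not independent. Such a difference compares the genes of a pair with each other and does not say which of them changed. In both oxygen-related pairs compared here the mean of the low-oxygen form lay further toward the HSP12 side, as the plot of isoform pairs shows. CYC7 itself had a mean of -0.10. Among the related genes the order was the opposite for the ADP/ATP carriers. AAC3, of low-oxygen growth, had a mean of -0.46 and the main form PET9 one of 0.20.

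**Figure D2:**
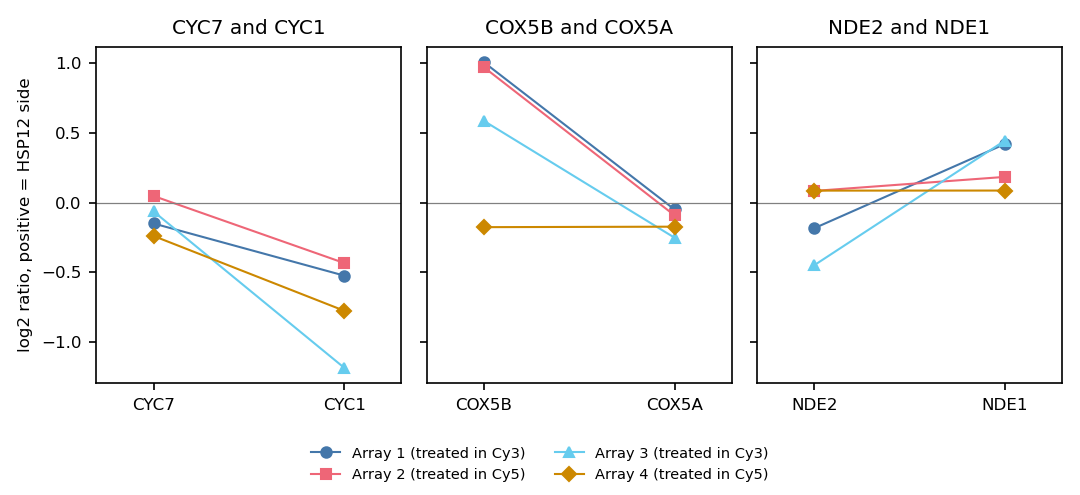
Log2 ratios (vertical axis, positive on the HSP12 side) of the 3 isoform pairs, 1 line per array joining both genes of a pair. All 4 lines fall from CYC7 to CYC1, 3 of 4 fall from COX5B to COX5A, and the mean difference of NDE2 minus NDE1 is -0.40.

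Values on arrays 3 and 4 moved with the length of the gene, here the span from start to stop codon with any intron included. The members are short, with a median of 483 bases (from 180 to 1923) against 1218 for all genes. Spearman's rho between coding length and log2 ratio over the 37 members reached 0.39 on array 3 and 0.77 on array 4, and was -0.02 and 0.43 on arrays 1 and 2. Over all 4578 genes with a length it was 0.45 and 0.40 on arrays 3 and 4, against -0.01 and -0.18 on arrays 1 and 2. The median over the members was -0.20 and -0.18 on arrays 3 and 4, against 0.09 and 0.08 on arrays 1 and 2, while the median over all genes lay between -0.10 and -0.02 on every array. The points are genes that share 4 arrays, and these correlations are given without a test.

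Members of 1000 bases or less and longer ones had medians of opposite sign on arrays 3 and 4. The 29 shorter members had a median of -0.24 there, against 0.08 on arrays 1 and 2. The 8 longer ones (NDI1, NDE1, NDE2, SDH1, COR1, QCR2, ATP1 and ATP2) had 0.24 on arrays 3 and 4, against 0.16 on arrays 1 and 2. All genes of the same lengths had -0.29 (shorter) and 0.07 (longer) on arrays 3 and 4, against -0.01 and -0.05 on arrays 1 and 2. With a smooth trend in coding length removed from each array, the median over the members was 0.03, against -0.06 for all genes. The count of members called after this removal was again 0, where 3.21% of all genes with a length were called. Over the members rho between the mean and coding length was still 0.40 after this step, against 0.66 before it, while over all genes it was 0.0063, against 0.33 before. Complex IV then had a median of -0.03 and ATP synthase one of 0.00. The part of length in the members' values was measured only in this way, and what gives the trend was not tested.

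**Figure D3:**
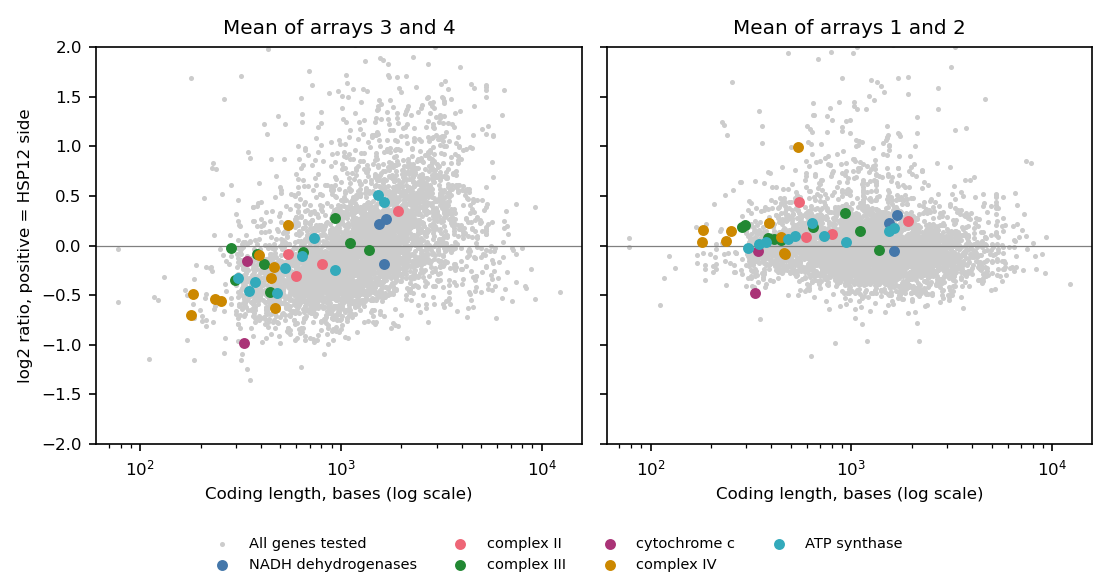
Log2 ratio (vertical axis, positive on the HSP12 side) against coding length in bases (log scale) for all genes tested (grey) and the 37 members (coloured by complex). The left panel gives the mean of arrays 3 and 4 and the right panel that of arrays 1 and 2; a few genes beyond the axis are not drawn. Most short members lie below 0 on arrays 3 and 4 and above 0 on arrays 1 and 2, where the median of those up to 1000 bases is 0.08.

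The members also differed by which dye the treated RNA carried, though in median size no more than genes in general. The median absolute difference between the orientations was 0.22 for the members, against 0.24 for all genes. QCR6 averaged 0.32 on arrays 1 and 3 and -0.73 on arrays 2 and 4, and COX12 averaged 0.33 on arrays 1 and 3 and -0.75 on arrays 2 and 4. ATP5 had the opposite pattern, with -0.34 on arrays 1 and 3 and 0.47 on arrays 2 and 4. Over the 37 members, arrays of the same orientation correlated with r = 0.73 (arrays 1 and 3) and 0.58 (arrays 2 and 4). Arrays of opposite orientation had r from -0.08 (arrays 1 and 4) to 0.37 (arrays 3 and 4), although the turning set these signs over all genes. Over all genes r was 0.49 (arrays 1 and 3) and 0.52 (arrays 2 and 4) within an orientation. Across orientations it ran from 0.29 (arrays 1 and 4) to 0.60 (arrays 3 and 4). Arrays 1 and 2 had 0.54 over all genes and 0.07 over the members. The sum of squares about 0 was split into parts. For the members 40.7% lay in the mean of the turned arrays, 27.1% in the dye orientation and 28.0% in arrays 3 and 4 against arrays 1 and 2. Over all genes the shares were 57.8%, 15.0% and 21.0%. Each share depends on the size of the other parts, and 137 of all genes but 0 members had a mean of at least 2-fold. These shares are descriptions over genes and carry no test.

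**Figure D4:**
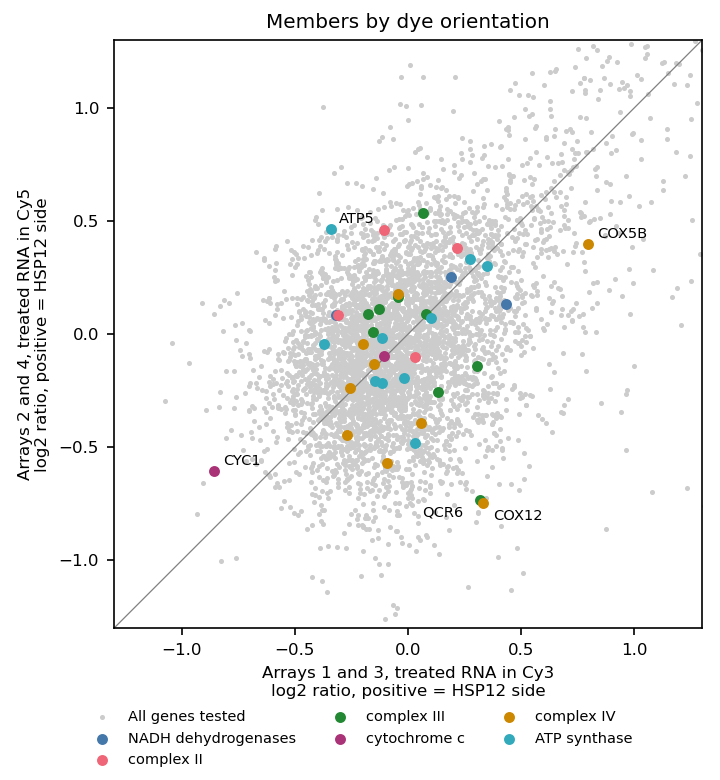
Mean log2 ratio of arrays 1 and 3, with the treated RNA in Cy3 (horizontal axis), against that of arrays 2 and 4, with it in Cy5 (vertical axis), for all genes tested (grey) and the 37 members (coloured by complex); a few genes beyond the axes are not drawn. Points on the diagonal have the same value in both orientations. QCR6 and COX12 lie far below it, ATP5 above it, and CYC1 is low in both orientations.

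Genes that work around the chain were described from 9 lists of 97 genes, of which 73 could be tested. Only 3 of these were called, all on the HSP12 side, or 4.11% against the 4.55% over all genes (limma, adjusted p under 0.05). GUT2, the mitochondrial glycerol 3-phosphate dehydrogenase that hands electrons to coenzyme Q, had 0.75, 1.06, 1.59 and 1.59 on arrays 1 to 4. Its mean was 1.25 ± 0.42 (SD, n = 4), or 2.37-fold (limma adjusted p = 2.48e-05), and it kept the call without any 1 array (adjusted p from 0.000229 to 0.0310). PIC2, a mitochondrial carrier of phosphate and copper, had 1.06, 1.24, 0.88 and 0.96, a mean of 1.04 ± 0.16 (limma adjusted p = 0.000943), and without array 1 it had a mean of 1.03 with no call (adjusted p = 0.0537). STF2, linked to the inhibitor of ATP synthase, had 1.72, 1.57, 0.31 and 0.72, a mean of 1.08 ± 0.68 (limma adjusted p = 0.000461). Its mean was 0.87 without array 1 and 0.92 without array 2, with no call (adjusted p = 0.162 and 0.171).

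The other genes of these lists were not called. DLD1, a D-lactate dehydrogenase that passes electrons to cytochrome c, had 0.41, 0.57, 0.94 and 1.03 (limma adjusted p = 0.0536). The inhibitor gene INH1 had a mean of 0.23 and the epsilon subunit gene ATP15 one of 0.01. Of 43 assembly and expression factors, with a median of -0.04, 0 were called, against 4.55% of all genes. By limma 2 of the 43 had an unadjusted p under 0.05, against 11.5% of all genes. The first was SDH8, a complex II assembly factor, with 0.31, 0.57, 4.54 and 0.08, so that its mean of 1.38 was 0.32 without array 3. The other was PET122, a translation activator of mitochondrial COX3 mRNA, with a mean of 0.58. Of 9 coenzyme Q genes 0 were called and 0 had an unadjusted p under 0.05 by limma, against the same shares of all genes. Their means ran from COQ10 (-0.40) to COQ6 (0.43).

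Of the 6 regulators of respiratory genes 0 were called. HAP1 and HAP3 (2 of 6) had an unadjusted p under 0.05 by limma, against 11.5% of all genes, and HAP3 only narrowly (limma unadjusted p = 0.0487). A list of 6 genes is too short to set its share against that of all genes. HAP1 had 1.25, -0.46, 2.33 and -0.37, far apart between the dye orientations, with a mean of 0.69 ± 1.35 (SD, n = 4; limma adjusted p = 0.0929). Without array 3 its mean was 0.14 (adjusted p = 1.00), and without array 4 it was 1.04 with a call (adjusted p = 0.00338). HAP4, the regulatory subunit of the Hap2/3/4/5 complex, had a mean of 0.29 ± 0.35, and HAP3 one of -0.48 ± 0.45. Among the carriers, AAC3, an ADP/ATP carrier of low-oxygen growth, had -0.46, and the main form PET9 0.20. The complex II paralogues SHH3 and SHH4 had -0.14 and 0.19, and the supercomplex factors RCF1 and RCF2 0.04 and 0.02. The 7 mitochondrially encoded subunits in these lists matched 0 rows by gene name, so they could not be analysed here.

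**Figure D5:**
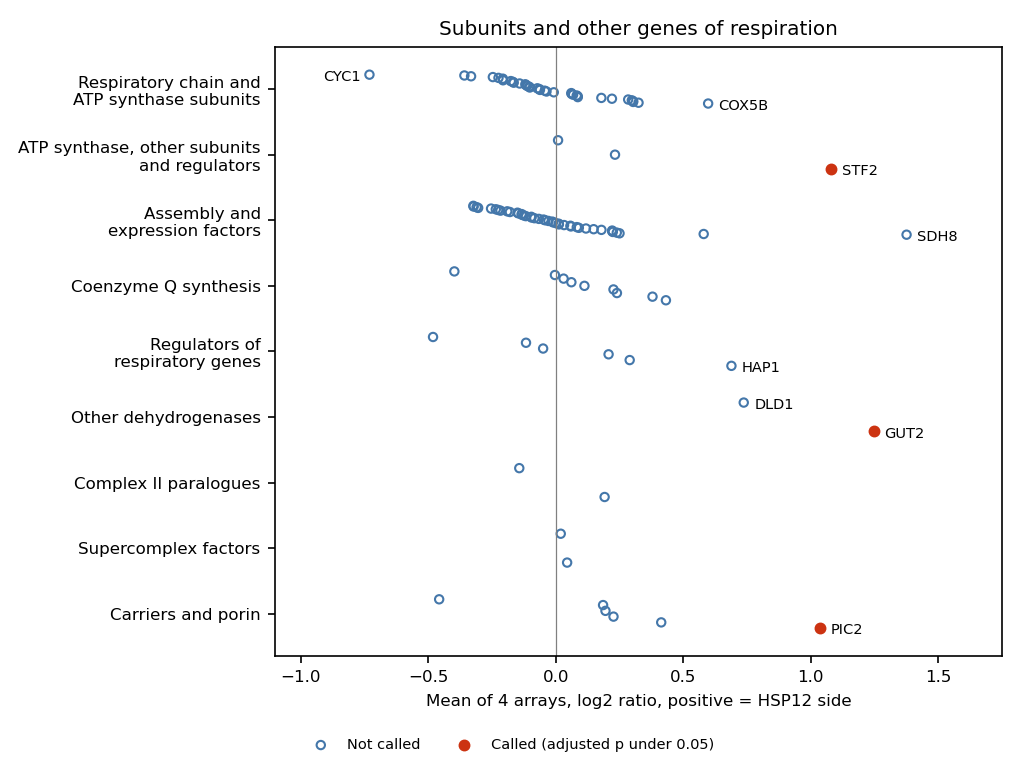
Mean log2 ratio of 4 arrays (horizontal axis, positive on the HSP12 side) for the 37 members in the top row and for 8 lists of related genes below, 1 point per gene. Filled points are the 3 genes called by limma, GUT2, PIC2 and STF2, and 0 of the 37 members are filled.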

How the data were processed

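The deposited values were log ratios between both channels of each array, treated as log2 because of their size. Per the labels' protocols, RNA was purified on Qiagen columns, and Cy3-dUTP or Cy5-dUTP was built into the cDNA. Numerator, background correction, normalization and spot filter are not given in the sources used, and scale, centring and direction stay unknown. Column medians were -0.02, 0.05, -0.10 and 0.02 on arrays 1 to 4. Rows were named through the RefSeq table of assembly R64 (5677 of 6207 matched), after 2 control spots were left out. Arrays 2 and 4 were multiplied by -1. The 4788 genes with a value on all arrays were fitted with limma 3.58.1 in R 4.3.3 (lmFit, eBayes) on culture means. The dye swap that the labels give for each sample was read as a swap within each culture, which leaves 2 pairings (1 with 2 and 3 with 4, or 1 with 4 and 2 with 3). Both were fitted and the larger p was kept. Benjamini-Hochberg adjustment ran over all 4788 genes, with calls under 0.05. The length trend was a loess fit (span 0.4) on each array. SDs are over 4 arrays. For every member the kept p rests on 1 standard error that the fit shared over all genes (0.24). It therefore follows the size of the mean and not the member's own spread between arrays. The p-values cover only these arrays and cultures. The fit was also run on simulated data, in which unchanged genes had means near 0 by construction. The 0% of false calls found there therefore does not measure the rate of false calls in these data. Figures were drawn with matplotlib 3.10.9.

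The members and lists were chosen with earlier results of these data known. Named genes were the isoform pairs, the largest and smallest mean of each complex, and from each list the called genes and up to 2 with the largest mean. Members and list genes outside this rule (among them QCR6, COX9, COX12, HAP4, ATP15 and PET9) were named after their values were seen or to account for every member. The alternatives are given in the closing section. No sequences were printed.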

Additional observations from a re-analysis of the deposited data

Results flagged for a closer look

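In a set of 4 arrays, a value was marked when its gap to the nearest of the others took up a larger part of the whole range than Dixon's 95% critical value for 4 values. Chance marks about 1 in 20 genes this way. Of 37 members 0 were marked, and of 73 related genes 3. SDH8 had 4.54 on array 3 against 0.08 to 0.57 on the others (gap ratio 0.892). COX16, a complex IV assembly factor, had -0.99 on array 4 against 0.07 to 0.20 on the others (0.889). CBP2, a splicing factor for the mitochondrial cytochrome b transcript, had 0.40 on array 4 against -0.25 to -0.20 on the others (0.929).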

How the results depend on the processing

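The count of members called was 0 on both sides with the larger p of both pairings. It was also 0 on both sides with arrays 1 and 2 and arrays 3 and 4 paired alone, with median centring, with the length trend removed, with a fold minimum of 1.5, with the arrays not turned, and without array 1, 2 or 3. The count was 1 on the TIP1 side, CYC1, with a dye term (3.86%), 4 separate replicates (3.99%) or a random block for culture (3.17%). CYC1 was also the 1 member called with equal median absolute deviation (4.14%), values on at least 3 arrays (3.31%) or robust variance moderation (4.99%). Leaving out each array gave 0 to 1 on either side, with COX5B and CYC1 called without array 4 (2.99%). With arrays 1 and 4 and arrays 2 and 3 paired alone the count was 5 on the HSP12 side (SDH1, CYT1, COX5B, ATP1, ATP2). On the TIP1 side it was 3 (CYC1, COX4, COX9). That pairing called 29.6% of all genes, against 4.55%.

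Of 555 values (37 members under 15 alternatives) 50 changed sign, none of them called, and 21 members kept their sign under all alternatives in which the arrays were turned. Left unturned, the arrays gave medians of -0.031 for the NADH dehydrogenases and -0.065 for cytochrome c. The isoform differences were recomputed only with median centring, equal median absolute deviation, the length trend removed and each array left out, and kept their sign there (0.46 to 0.71, 0.63 to 0.99 and -0.53 to -0.24 without 1 array). Among related genes, centring and equal median absolute deviation each added 1 call among assembly factors (SDH8), 1 among regulators (HAP1), and brought the dehydrogenases to 2 (DLD1). Without 1 array, the ATP synthase regulators had 0 to 1 called, the carriers 0 to 1, the regulators 0 to 1 and a median from 0.0082 to 0.10. The cause of these changes was not tested. The comparison was paired by design, because each array holds the treated and untreated RNA of 1 culture and the log ratio is taken between them. There is only 1 group. Signal over background was not used here, and the number of arrays limits the precision.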
